A study of Mus musculus with 9 samples.

Results

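The transcriptome described here is that of mouse embryonic stem cells (ESCs) before any recombination was induced: the 3 uninduced libraries among the 9 libraries and 3 groups of an RNA-sequencing study of extra copies of Myc. They were chosen by their titles and by the design text, with no use of measured values, and levels rather than changes are described. The cells were homozygous for iMOS T1-Myc, an allele built so that 4-hydroxytamoxifen produces a mosaic of cells carrying different numbers of Myc and EYFP copies, and they carried RERT, which makes the recombination depend on the drug. The genetic background is given as mixed. All groups shared these alleles, so the cells are an engineered line and not an unmodified ESC. Uninduced cultures were grown on gelatin-coated plates in a medium named 2xLIF SR-ESC and passed through the sorter by EYFP, as the treated cells were. The per-sample protocol text describes drug treatment for every sample, also for the uninduced ones, and the titles and design were followed here. The study calls the 3 samples biological replicas, and no label says that they came from separate cultures or clones, so the spread between them may be technical. Total RNA was converted to Illumina cDNA libraries and read as single ends of 75 bases. The sources used here do not state how RNA was selected or whether strand was kept.

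ESCs are derived from the inner cell mass of the blastocyst and can form all tissues of the embryo. A circuit of transcription factors centred on Pou5f1 (Oct4), Sox2 and Nanog keeps them in this state, and LIF acts through Stat3 to sustain the naive factors that mark cells closest to the preimplantation epiblast. Cells that leave this state pass through a formative phase, marked by genes such as Otx2, Dnmt3b and Fgf5, before they take up germ layer programmes. Mouse ESCs also divide fast, use glycolysis heavily, and favour particular members of many gene families over their paralogues.

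The 3 libraries held 7070317, 7952695 and 6545308 rounded expected counts, for replicates 1, 2 and 3. Levels are CPM, counts scaled to a common library total, after TMM scaling of the 3 libraries, given as mean ± SD over these 3 libraries, and levels of different genes are compared only as CPM per kilobase of the union of a gene's exons (CPM per kb). A gene was called detected at 1 CPM or more in each library, and silent where all 3 libraries had 0 rounded counts. Rank 1 is the highest CPM per kb among the 20720 genes with at least 1 count, and a rank percentile is the rank as a percent of these genes, so that low percentiles mean high levels. Pearson's r of log2 CPM between pairs of libraries was 0.992 to 0.993 across detected genes. The median coefficient of variation was 4.26% over the 7612 genes at 20 CPM or more, and 20 of these genes exceeded 20%. A chi-square test of homogeneity with Benjamini-Hochberg adjustment found counts that differed between the 3 libraries beyond counting error for 287 of 13215 genes, which is 2.17%. It compares these libraries and no conditions. At higher counts it calls smaller relative differences. Replicate 1 stood somewhat apart: 149 of the 287 genes were lowest in it and 85 were highest in it, and with replicate 1 left out the test called 72 genes. The mean chi-square per degree of freedom was 1.70 between replicates 1 and 2, 1.89 between 1 and 3, and 1.35 between 2 and 3, so no library repeated another.

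The ESC markers were all present. Pou5f1 lay at chr17:35506018-35510772 (GRCm38, plus strand) and had 1101, 1120.1 and 1142 CPM in replicates 1, 2 and 3. Sox2, at chr3:34650405-34652461 (plus strand), had 377, 368 and 369 CPM. Nanog, at chr6:122707489-122714633 (plus strand), had 208, 198 and 207 CPM. Zfp42 (Rex1), a zinc finger gene of naive cells at chr8:43295063-43306980 (minus strand), had 453, 443 and 432 CPM. Esrrb, a nuclear receptor that sustains self-renewal, at chr12:86361117-86521628 (plus strand), had 231, 246 and 230.1 CPM. None of the 5 genes passed the test of differences between libraries, beside 2.17% of all genes tested. No library was the lowest for all of them.

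Of 21552 protein-coding genes in the table, 12477 (57.9%) were detected, 4796 (22.3%) were silent, and 4279 had counts without reaching 1 CPM in each library. Over all gene classes 13154 genes were detected, with a median level of 27.6 CPM. Of these, 9482 had a mean of at least 10 CPM, 2296 at least 100 CPM and 95 at least 1000 CPM. On the per-length scale the detected genes had a median of 6.02 CPM per kb, the middle 50% lay between 2.03 and 16.1 CPM per kb, and the top 1% began at 307 CPM per kb. A total of 0 counts in all 3 libraries allows a mean of up to 0.139 CPM, from 3 counts over the group and for counting error only. In bulk RNA a low level can mean a low level in every cell or a high level in few cells, and fewer cells of a type cannot be told apart from less RNA per cell.

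**Figure D1:**
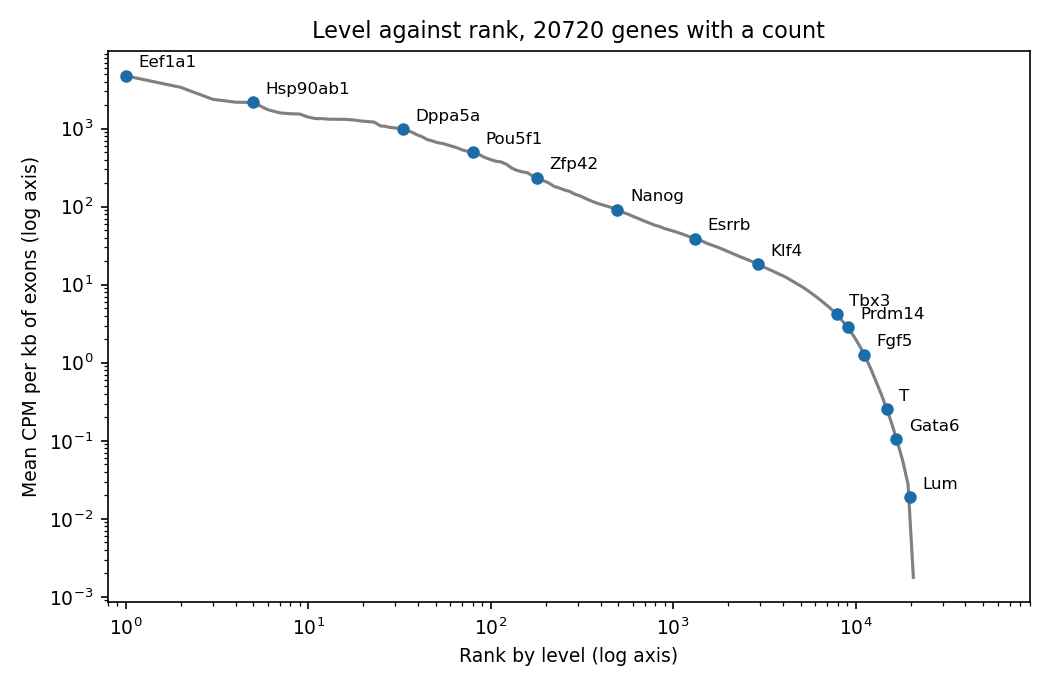
Mean CPM per kb (log axis, 3 uninduced libraries) of the 20720 genes with a count against their rank (log axis), with named genes as labelled points. The curve falls from Eef1a1 at 4755 CPM per kb; Pou5f1 sits at rank 80 and Nanog at rank 495, while Fgf5 lies at rank 11138.

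The most abundant transcripts were those of translation, protein folding, glycolysis and the cytoskeleton. Eef1a1, which carries aminoacyl-tRNA to the ribosome, was first on both scales, with 11348, 12107 and 12109 CPM in replicates 1, 2 and 3 and 4755 ± 176 CPM per kb. Replicate 1 was the low one. Hsp90ab1, the constitutive cytosolic HSP90 chaperone, had 6283, 6527 and 6683 CPM and 2167 ± 67.1 CPM per kb. Gapdh, the glycolytic dehydrogenase, had 5217, 5433 and 5714 CPM and 1319.8 CPM per kb. Both were also lowest in replicate 1. By CPM the following protein-coding genes were Hsp90aa1 (4082 CPM), the elongation factor gene Eef2 (4036 CPM), the nucleolar histone chaperone gene Npm1 (3513 CPM), Ptma (3478 CPM), Pkm (2983 CPM) and the ferritin light chain gene Ftl1 (2926 CPM). Ptma encodes prothymosin alpha, a small acidic nuclear protein, and reached 2379 CPM per kb, the third place among protein-coding genes on the per-length scale. Among the 25 protein-coding genes with the highest CPM per kb, 13 encoded cytosolic ribosomal proteins, and Rplp1 led these with 3387 CPM per kb. Its near-identical copy Gm10073 held 0.990 CPM. Actb (2567 CPM), Tuba1b (2439 CPM) and Tubb5 (2142 CPM), which encode actin and tubulins, the translation genes Pabpc1 (2491 CPM) and Eif4a1 (2268 CPM), and Ncl (2403 CPM), which encodes nucleolin, were also among the 25 highest by CPM. Another was Nedd4, a ubiquitin ligase gene, with 2016.5, 2021 and 2016 CPM, a coefficient of variation of 0.141%.

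The window upstream of Eef1a1 is shown as an example of a CpG-rich start of an abundant gene. It covers the 250 bases before the RefSeq transcription start at chr9:78481725-78481974 (GRCm38.p6, minus strand), with each CG pair in capitals, and holds 18 of them.
Eef1a1: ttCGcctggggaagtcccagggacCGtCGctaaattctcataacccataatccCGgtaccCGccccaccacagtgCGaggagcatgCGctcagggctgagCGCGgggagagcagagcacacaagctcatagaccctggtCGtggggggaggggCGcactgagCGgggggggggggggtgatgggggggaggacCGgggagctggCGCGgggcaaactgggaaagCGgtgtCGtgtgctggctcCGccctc

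The counts were spread widely in spite of these leaders. The 10 most abundant genes took 4.66%, 4.76% and 4.84% of all counts in replicates 1, 2 and 3. The 100 most abundant took 17.8%, 18.3% and 18.4%. It took 958, 938 and 928 genes to reach 50% of the counts, and 5717, 5704 and 5682 genes to reach 90%. Replicate 1 had the flattest distribution by each of these counts, by a small margin. Protein-coding genes held 97.6% of the counts and lincRNA genes 0.783%, with 212 of 3538 lincRNA genes detected.

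Ribosomal protein genes took the largest share of counts among the gene lists and families examined. Of 85 cytosolic ribosomal protein genes 84 were detected and 83 were in the top decile of CPM per kb, with a median of 934 CPM and 461 CPM per kb. They summed to 80346, 84739 and 85030.1 CPM in replicates 1, 2 and 3 and to 8.34 ± 0.205% of the counts. The exception was Rpl3l, a paralogue of Rpl3 known from muscle, with 13 counts in all. Rpl39l and Rpl10l, paralogues known from the testis, were detected at 17.9 and 83.0 CPM. The block was lower in replicate 1: 80 of 84 tested genes had their lowest CPM there. Of the 84, 50 differed between libraries beyond counting error, beside 2.17% of all genes tested. The 2 shares are not at like counts, since the median was 934 CPM here and 27.6 CPM over detected genes. They do not show that this block varied more than other genes. Of the 287 genes called over the whole table, 17.4% were ribosomal protein genes. Gene length moved with this: across detected genes the log2 deviation of a library from the 3-library mean had r = 0.115 with log2 transcript length in replicate 1, -0.056 in replicate 2 and -0.061 in replicate 3. Its part in the difference was not tested.

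The translation factor list, 16 genes that load, move or release the ribosome, was detected in full at a median of 1049 CPM, 202 CPM per kb, and took 3.05% of the counts. Its 5 members that differed between libraries (Eef1a1, Eef1b2, Eef1g, Eif4a1 and Eif5a) were all lowest in replicate 1. Over all genes tested 2.17% differed, and high counts make such calls easier. All 78 genes of mitochondrial ribosomal proteins were detected, at a median of 44.2 CPM. Of 39 proteasome genes 38 were detected, at a median of 176 CPM. Psmd2, a subunit of the regulatory particle, was first by CPM, with 423 CPM and 105 CPM per kb. Psmc5 was higher per length, with 252 CPM and 180.5 CPM per kb.

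Many ribosomal protein genes start transcription within a run of pyrimidines, part of the sequence known to tie their translation to growth signals. Bases within 15 of the RefSeq start are shown for the 3 ribosomal protein genes with the highest CPM per kb whose run lies inside this stretch (GRCm38.p6). A run is 7 or more C or T in a row on the gene's own strand, starting within 15 bases of the start, and it is in capitals. Rps6 (chr4:86857353-86857382, minus strand) had 1664, 1719 and 1754 CPM and 1079 CPM per kb. Rpl7a (chr2:26910792-26910821, plus strand) had 1381, 1413 and 1423 CPM and 789 CPM per kb. Rps21 (chr2:180257364-180257393, plus strand) had 552, 605 and 602 CPM and 723 CPM per kb. All 3 genes were lowest in replicate 1.
Rps6: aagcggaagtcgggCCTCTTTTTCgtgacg
Rpl7a: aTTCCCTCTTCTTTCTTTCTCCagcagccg
Rps21: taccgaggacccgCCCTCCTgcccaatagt
Such a run was found for 31 of the 64 ribosomal protein genes with a RefSeq window (48.4%), against 20.0% of all 16365 protein-coding genes with one. This describes letters, and says nothing of how the RNAs are used.

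Glycolysis genes were high as a group. All 19 were detected, 15 in the top decile, with a median of 567 CPM and 115 CPM per kb, and they took 1.64 ± 0.0436% of the counts. The glucose transporter gene Slc2a1 had 743, 705 and 734 CPM and 207 CPM per kb, and Slc2a3, another transporter gene, had 870.4, 788 and 839 CPM and 115 CPM per kb. The enzymes spread widely per length, with 1319.8 CPM per kb for Gapdh, 596 for Pkm, 438 for Pgam1 and 314 for Aldoa at the high end. The first steps were lower, with 37.4 CPM per kb for Hk2, 6.25 for Hk1, 39.1 for Pfkl and 14.4 for Pfkp. Between libraries 7 of 19 members differed beyond counting error, beside 2.17% of all genes tested, and high counts make such calls easier. Slc2a3, Pfkl, Aldoa, Pgk1 and Ldha were highest in replicate 1, Gapdh was lowest there, and Pkm was neither. The oxidative phosphorylation list was also detected in full (23 of 23), with a median of 165 CPM and 69.0 CPM per kb and 0.678% of the counts. None of its genes passed the test between libraries, at a lower median CPM than the glycolysis list, so these calls do not compare the pathways. Within the oxidative phosphorylation list Atp5b, the catalytic beta subunit of ATP synthase, reached 507 CPM per kb, with 2103, 2162 and 2183 CPM. These are nuclear genes only, because no mitochondrially encoded gene was among the deposited values.

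The 28 genes of DNA replication and the cell cycle were all detected, at a median of 227 CPM and 63.8 CPM per kb. Top2a, the topoisomerase of dividing cells, had 1108, 1076 and 1053 CPM. The 6 genes of the MCM helicase, which opens DNA at origins, lay between 255 and 501 CPM. Per length the cyclins and their kinases ranged widely, from 155 CPM per kb for Cdk4, 114 for cyclin B1 (Ccnb1) and 97.1 for cyclin E1 (Ccne1) down to 2.66 for Cdk6 and 2.39 for Ccnd2. Inhibitors of cyclin-dependent kinases had 23.4 CPM per kb for Cdkn1c, 14.6 for Cdkn1a, 12.1 for Cdkn1b, 7.65 for Cdkn2a and 1.80 for Cdkn2b. Trp53 (p53), whose targets include Cdkn1a, had 433, 459 and 452 CPM and 111 CPM per kb.

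Stress programmes differed in level. The chaperone list was detected in full (16 of 16) at a median of 730.0 CPM, 237 CPM per kb, and 2.08% of the counts. Cct2, a subunit of the chaperonin that folds actin and tubulin, had 754 ± 0.560 CPM. The inducible HSP70 genes Hspa1a and Hspa1b, which are close copies, had 2.71 and 6.28 CPM. The integrated stress response list was detected in full (15 of 15) at a median of 225 CPM. Its factor Atf4 had 449, 466 and 450.5 CPM, and Psat1, an enzyme of serine synthesis, had 646, 649 and 647 CPM. Ddit3 (CHOP), the factor linked to lasting stress, had 26.7 CPM. Immediate early and heat shock genes were detected in 11 of 12 cases at a median of 16.3 CPM, with Fos at 4.16 CPM and Fosb not detected. Egr1, a factor induced by growth signals, had 62.9, 93.7 and 98.0 CPM and was low in replicate 1, as was Ier2 with 104, 124 and 122 CPM. Hypoxia-responsive genes were detected in 10 of 11 cases at a median of 29.9 CPM.

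The pluripotency factors were among the high transcripts, and the core members stood far above the median of detected genes. All 12 core genes were detected and in the top decile, with a median of 314 CPM, 99.2 CPM per kb and a median rank percentile of 2.16, beside 31.8 for all detected genes. Per length Pou5f1 led with 499 ± 9.25 CPM per kb (rank 80). Trim28, a co-repressor of retroelements that binds KRAB zinc fingers, followed with 409 CPM per kb from 1682, 1688 and 1729 CPM. Utf1, a chromatin protein of pluripotent cells, had 237 CPM per kb. Sox2 had 180.5 CPM per kb (rank 228), and Lin28a, which blocks let-7 maturation, had 113 CPM per kb. Dppa4 (107 CPM per kb) was above Nanog (91.1 ± 2.62 CPM per kb, rank 495) and Nacc1 (78.4 CPM per kb). On the union length the order down to Nacc1 was free of overlap between the libraries of neighbouring genes. Lin28a and Dppa4 nearly met, with a lowest library of 109.4 CPM per kb against a highest of 109.3. Dppa2, Rif1 and Sall4 followed within 44.9 to 47.7 CPM per kb, where the libraries of neighbours overlapped, and Zfp281 was last with 32.0 CPM per kb. Rif1, which controls replication timing, was the 1 core gene of 12 that differed between libraries, with 509, 469 and 448 CPM, highest in replicate 1. The share over all genes tested was 2.17%.

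The 250 bases upstream of the RefSeq starts of Pou5f1, Sox2 and Nanog are shown because these 3 genes, high in the same cells, differ in CpG content (GRCm38.p6, plus strand, CG pairs in capitals). The Pou5f1 stretch (chr17:35505782-35506031) holds 8 pairs, the Sox2 stretch (chr3:34649745-34649994) 27 pairs and the Nanog stretch (chr6:122707239-122707488) 3 pairs.
Pou5f1: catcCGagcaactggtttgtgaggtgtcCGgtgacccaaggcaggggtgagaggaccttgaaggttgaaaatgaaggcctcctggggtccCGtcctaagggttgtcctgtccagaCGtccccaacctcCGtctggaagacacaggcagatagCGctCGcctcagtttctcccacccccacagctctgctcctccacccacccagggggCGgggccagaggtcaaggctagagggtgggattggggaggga
Sox2: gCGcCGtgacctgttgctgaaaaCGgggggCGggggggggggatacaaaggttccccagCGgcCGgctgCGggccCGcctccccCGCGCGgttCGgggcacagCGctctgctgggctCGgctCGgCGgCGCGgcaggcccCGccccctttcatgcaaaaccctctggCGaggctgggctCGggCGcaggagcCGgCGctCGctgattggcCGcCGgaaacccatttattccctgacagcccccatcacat
Nanog: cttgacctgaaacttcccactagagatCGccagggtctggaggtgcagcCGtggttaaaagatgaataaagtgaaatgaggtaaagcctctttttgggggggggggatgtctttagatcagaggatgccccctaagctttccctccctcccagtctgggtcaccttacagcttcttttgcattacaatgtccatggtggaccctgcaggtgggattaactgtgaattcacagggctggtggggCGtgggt

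The naive markers spread over a wider range. All 20 were detected, with a median of 70.0 CPM, 28.7 CPM per kb and a median rank percentile of 9.19, and 10 of the 20 were in the top decile. The highest was Dppa5a, an RNA-binding protein gene of early embryonic cells, with 603, 608 and 614 CPM and 983 ± 9.15 CPM per kb (rank 33). A close copy of its transcript at 95.9% identity makes that value uncertain. Zfp42 had 235 ± 5.45 CPM per kb (rank 180) and Tdgf1 (Cripto), the Nodal co-receptor, 143 CPM per kb (rank 291). Of the Krüppel-like factors, Klf2 had 83.3 CPM per kb from 150, 147 and 165 CPM. Klf4 had 18.3 CPM per kb from 55.7, 55.6 and 55.8 CPM. Klf5 had 11.8 CPM per kb. Each of these 3 factors can sustain the naive state, and their libraries did not overlap. Esrrb had 39.0 ± 1.46 CPM per kb (rank 1317), which overlapped Fbxo15 (39.8 CPM per kb), an F-box gene used as an ESC reporter. At the low end stood Tfcp2l1, a LIF target, with 97.0, 86.4 and 95.9 CPM and 9.86 CPM per kb, and Tbx3 with 25.3, 30.3 and 27.9 CPM and 4.20 CPM per kb. Prdm14, a repressor of FGF signalling and DNA methylation, was the lowest naive marker with 6.03, 8.96 and 6.90 CPM, 2.85 CPM per kb and rank 9035. Prdm14 and its neighbour Tet2 overlapped between libraries. Tet2, a 5-methylcytosine oxidase, was the 1 naive gene of 20 that differed between libraries, with 76.2, 58.3 and 62.4 CPM. The share over all genes tested was 2.17%.

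**Figure D2:**
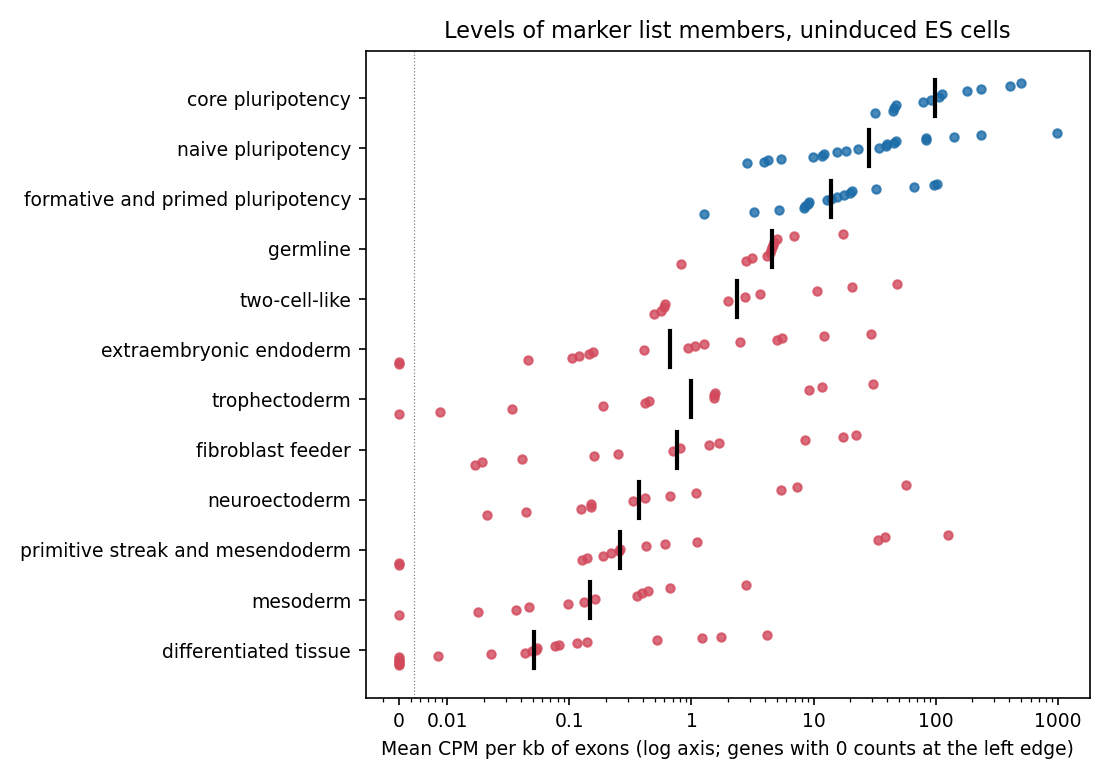
Mean CPM per kb (log axis) of every member of 12 gene lists in the 3 uninduced libraries; each dot is a gene, genes at 0 counts sit at the left edge, and the black bar is the list median. The medians run from 99.2 CPM per kb for core pluripotency to 0.0514 CPM per kb for differentiated tissue.

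Formative and primed markers were present at the same time. All 17 were detected, at a median of 46.6 CPM and 13.8 CPM per kb. The highest mean was that of Etv5, an ETS factor downstream of FGF, with 407, 418 and 425 CPM and 102 CPM per kb. Dnmt3b, a de novo DNA methyltransferase, had 488, 496 and 510.0 CPM and 97.5 CPM per kb, and its libraries overlapped those of Etv5 per kb. Otx2, which redirects enhancers at the exit from the naive state, had 35.8, 36.4 and 34.4 CPM and 8.41 CPM per kb. Fgf5, the classical marker of the postimplantation epiblast, was the lowest of the list with 2.53, 3.16 and 3.83 CPM and 1.27 CPM per kb (rank 11138). None of the 17 passed the test between libraries, beside 2.17% of all genes tested, so few calls were to be found in a list this short.

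Markers of other lineages were mostly low. Of the 66 markers of streak, neural, mesodermal and extraembryonic fates 30 were detected, beside 57.9% of all protein-coding genes. Mesoderm had 2 of 12 detected, the blood and endothelial factor gene Tal1 (1.71 CPM) and Twist1 (4.52 CPM). Primitive streak and mesendoderm had 5 of 14, at a median of 0.698 CPM. T (Brachyury) had 0.281, 0.884 and 0.614 CPM, a total of 13 counts, Gsc had 6 counts, and Evx1 and Cer1 were silent. The detected members were Eomes (2.53 CPM), Fgf8 (1.49 CPM) and the Nodal pathway genes Nodal, Lefty1 and Lefty2. Nodal had 69.2, 75.9 and 68.1 CPM and Lefty1, its feedback inhibitor, had 222, 213 and 225 CPM. Lefty1 reached 125 CPM per kb (rank 336), above Nanog on that scale. Lefty2 had 111, 96.3 and 95.6 CPM. ESCs are known to express Nodal and its inhibitors before any streak forms.

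Neuroectoderm had 6 of 12 detected at a median of 1.13 CPM. Sox1, an early neural factor, had 24.3, 24.1 and 29.6 CPM, and Pax6 had 12.7 CPM. Nes had 46.8 CPM and Tubb3, a tubulin of neurons, had 107 CPM, 57.1 CPM per kb. The proneural gene Neurog2, and Zic1, Hes5, Olig2 and Dcx, were not detected. Extraembryonic endoderm had 10 of 16 detected. Gata4 had 3.65, 4.92 and 3.83 CPM, while Gata6 with 0.842, 0.758 and 0.460 CPM, Sox17 with 5 counts and Sox7 with 10 counts were not detected, and the secreted protein genes Afp and Ttr were silent. The matrix genes of this list were the high ones: Lamb1 had 120 CPM, Sparc 113 CPM, Lama1 53.1 CPM and Col4a1 37.7 CPM. Trophectoderm had 7 of 12 detected. Its master gene Cdx2 had 0.702, 0.758 and 1.38 CPM and was not detected, and Elf5 had 1 count. Tfap2c, which is also used by ESCs and germ cells, had 109, 109 and 119 CPM and 30.5 CPM per kb. The simple keratins Krt8 and Krt18 had 23.0 and 13.2 CPM. The members of these 5 lists above 20 CPM were Nodal, Lefty1, Lefty2, Sox1, Nes, Tubb3, the matrix genes Lama1, Lamb1, Col4a1 and Sparc, Tfap2c and Krt8.

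Germline genes were all detected but modest. The 12 had a median of 10.6 CPM, and none was in the top decile. By CPM the highest were Prdm1, a repressor needed for germ cell fate, with 27.9 CPM, and the piRNA pathway gene Piwil2 with 24.2 CPM. Dazl had 17.2 CPM and Ddx4 (Vasa) 14.4 CPM. The two-cell-like list, which marks a rare state with transcripts of the cleavage-stage embryo, had 7 of 10 members detected at a median of 5.26 CPM. Zscan4f had 95.1, 91.8 and 96.6 CPM and Zscan4c 40.7, 54.3 and 45.1 CPM; Zscan4c, Zscan4d (24.3 CPM) and Zscan4f are near-identical, so the division between them is uncertain. Duxf3 (Dux), which drives that state, had 1.33 CPM, and Zfp352 was not detected.

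Fibroblast genes, which would mark feeder cells, had 8 of 12 members detected (66.7%, beside 57.9% of all protein-coding genes) at a median of 4.44 CPM. Vim, an intermediate filament gene that ESCs also express, had 102, 104 and 112 CPM. Tagln had 34.5 CPM and Acta2 18.6 CPM. Col1a1, Col1a2 and Col3a1 had 9.06, 9.98 and 2.45 CPM. Dcn had 2 counts, Lum 1 count and Postn 8 counts in all 3 libraries together. The labels name gelatin-coated plates and no feeder layer. Of 20 genes that mark differentiated organs 4 were detected and 6 were silent, and the median was 0.110 CPM. The silent ones were Apoa1, Ins2, Gcg, Ptprc, Hbb-bs and Umod, known from liver, islet, leukocytes, red cells and kidney. The detected ones were Myh6 (11.8 CPM), Mbp (10.4 CPM), Cd3e (2.14 CPM) and Insl3 (2.61 CPM), the last with exons that overlap those of Jak3.

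The components of the pathways that act on ESCs were nearly all present. The LIF list was detected in full (11 of 11) at a median of 44.4 CPM. The receptor gene Lifr had 31.6, 34.6 and 31.0 CPM and its partner Il6st (gp130) 91.3, 93.1 and 84.2 CPM. Per length both were modest, at 3.00 and 8.07 CPM per kb. Stat3, which carries the signal to the nucleus, had 88.1, 88.8 and 91.9 CPM. Its feedback target Socs3 had 93.4, 88.5 and 89.1 CPM and, at 31.3 CPM per kb, was above Stat3 at 9.40 CPM per kb. The ligand gene Lif had 11.6 CPM in the cells themselves. The FGF list had 15 of 16 detected at a median of 63.4 CPM. Fgf4, the autocrine ligand, had 73.1, 78.0 and 71.6 CPM, and its receptor gene Fgfr1 had 160, 165 and 170.3 CPM. The feedback phosphatase gene Dusp6 had 69.6, 72.3 and 69.9 CPM. Fgf2 (0.598 CPM) was not detected.

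The BMP list had 10 of 14 detected at a median of 8.37 CPM. Its median of 2.91 CPM per kb was the lowest of the 5 pathways, which otherwise lay between 6.02 and 9.52 CPM per kb. Bmp4 and Bmp7, the ligands, had 7.48 and 6.96 CPM, and the receptor gene Bmpr1a had 72.6 CPM. Of the transducers, Smad5 with 8.36 CPM per kb exceeded Smad1 with 2.66 CPM per kb. The Id genes, direct targets of the pathway, were low, with 9.25, 9.52 and 5.66 CPM for Id1, Id2 and Id3 and Id4 not detected. Bmpr2, which encodes the type II receptor, differed between libraries with 28.3, 21.8 and 18.9 CPM, highest in replicate 1. The Nodal and Activin list had 12 of 14 detected at a median of 39.2 CPM, with Gdf3 at 102 CPM and Tdgf1 at 374 CPM. Acvr1c was silent and Inhba had 1 count. The WNT list had 17 of 20 detected at a median of 68.3 CPM. Ctnnb1 (beta-catenin) had 868, 854 and 878 CPM, 167 CPM per kb. Tcf7l1, the repressor that limits naive genes, had 148, 138 and 146 CPM, and the target Axin2 12.2 CPM. Wnt3, Wnt3a and Wnt6 were not detected. Wnt7b (5.53 CPM) was.

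Chromatin regulators were mostly high. All 23 of the list were detected, 16 in the top decile, at a median of 294 CPM and 46.0 CPM per kb. Uhrf1, which brings maintenance methylation to replicated DNA, had 577, 584 and 596 CPM and 138 CPM per kb. Dnmt3l, the catalytically inactive partner of the de novo enzymes, had 310, 324 and 332 CPM and 108 CPM per kb. Tet1 had 353, 330 and 330 CPM. The polycomb genes Ezh2, Eed, Suz12 and Jarid2, whose products mark silent developmental genes, had 26.3, 46.0, 48.5 and 42.8 CPM per kb. The lowest of the list was Tet3, with 1.26 CPM per kb, followed by Tet2 with 3.89 CPM per kb.

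Imprinted genes gave a mixed picture. Of 28 genes 26 were detected at a median of 38.0 CPM. The maternally expressed RNAs Rian (707, 693 and 647 CPM) and Meg3 (627, 627 and 605 CPM) had 37.4 and 34.3 CPM per kb. Dlk1 and Rtl1, expressed from the paternal copy of the same domain, had 0.677 and 0.594 CPM per kb. H19 had 116, 113 and 115 CPM and 46.6 CPM per kb against 1.90 CPM per kb for its neighbour Igf2, which had 11.9, 12.6 and 8.13 CPM. The libraries of the neighbours did not overlap. Peg10, a gene from a retrotransposon, had 601, 606 and 608 CPM, and Airn had 2 counts. Of 15 sex-linked genes 13 were detected. The Y-linked genes Ddx3y (50.5, 51.5 and 46.3 CPM), Eif2s3y (53.1 CPM) and Uty (35.3 CPM) were expressed, Sry was silent, and Xist, which coats an inactive X, had 3.93, 3.79 and 5.52 CPM. X-linked genes had a median of 0.820, 0.758 and 0.756 of the autosomal median in replicates 1, 2 and 3, over detected protein-coding genes and per kb. Single autosomes had mean ratios from 0.786 (chromosome 6) to 1.33 (chromosome 11), beside 0.778 ± 0.0361 for the X. In replicate 1 chromosomes 6 and 13 (0.783 and 0.795) were below the X. Of 14 non-coding RNAs with an entry, 10 were detected, at a median of 25.8 CPM. Malat1 had 230.1, 283 and 303 CPM and Neat1 205, 284 and 285 CPM, both nuclear RNAs that were lowest in replicate 1.

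Within gene families one member often took nearly all of the transcript. In 24 of 64 families the leading paralogue took more than 90% of the family's summed CPM per kb, in 33 it took 50% to 90%, and in 7 at most 50%. Shares are of the members listed for a family, which need not be all of its paralogues. In all 64 the leader and the second member were separated in every library. The lead depended on the length used per gene in 8 families, while 56 kept their leader with the union, the longest and the median transcript length.

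The Myc family, the subject of the study, was led by Mycn. Mycn had 186, 187 and 189 CPM and 56.8 CPM per kb, Mycl had 26.7, 28.0 and 23.9 CPM and 6.49 CPM per kb, and Myc had 11.5, 14.1 and 14.1 CPM and 4.88 CPM per kb. Mycn took 83.9%, 82.4% and 83.8% of the family in replicates 1, 2 and 3, or 63.1% on average with the median transcript length. The Myc level does not tell transcripts of the natural locus from any of the iMOS allele.

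Families of pluripotency factors had a clear leader. Sox2 took 94.6%, 94.5% and 94.2% of its family of 3 (SoxB1), and Pou5f1 94.5%, 94.6% and 95.1% of 6 POU genes, ahead of Pou3f1 at 3.89%. Lin28a took 94.3% and Lin28b, with 61.7 CPM, the rest. Esrrb took 84.9% of the estrogen-related receptors. The Krüppel-like and SALL families were shared. Klf2 took 43.1% of the 9 Krüppel-like genes listed, which are not the whole family, and Sall1 49.7% of 4 SALL genes. With the median transcript length Klf3 and Sall4 led instead. The BAF chromatin remodelling complex is known to have an ESC form built on Smarca4 (BRG1), Actl6a and Smarcc1. Smarca4 took 99.8%, 99.8% and 99.7% against Smarca2 (1.74 CPM). Actl6a took 99.9% against the neuronal Actl6b with 3 counts. Smarcc1 took 85.0% and Arid1a 92.1%. Dnmt3l (48.3%) and Dnmt3b (43.8%) divided their family, but with the median transcript length Dnmt3a led with 50.1%. Tet1 took 81.0% of the TET genes.

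Some metabolic families had a single main isoform and others were shared. Pkm took 99.9%, Pgam1 99.6%, Aldoa 99.0% and Cox4i1 99.8%, while Hk2 took 85.3% ahead of Hk1, or 62.0% with the median transcript length. Ldha took 59.4% with Ldhb at 40.1%, and Pfkl 55.8% with Pfkm at 23.7%. Slc2a1 took 64.2% and Slc2a3 35.5% of the glucose transporters, and Slc2a3 led with 58.0% at the median transcript length. Eef1a1 took 99.98% against Eef1a2, which is known from neurons and muscle (1.69 CPM). Eno1 took 92.9%, but its copy Eno1b shares its reads. Among cell-cycle families Ccne1 took 96.6%, Ccna2 98.9%, Cdk4 98.3% and Top2a 95.8%. Trp53 took 97.8% of its family, and Mcl1, an antiapoptotic gene, took 93.3% of 5 BCL2-type genes. Cdh1 (E-cadherin) took 85.6% of the classical cadherins, ahead of Cdh3 at 12.5%. Lmnb1 took 80.3% of the lamins, with Lmna at 28.8 CPM. Stat3, for which the signal of LIF is best known, took 27.5% of 7 STAT genes, beside Stat6 at 25.3%, and 49.8% with the median transcript length. The JAK family was led by Jak3 (48.6%) per union length but by Jak1 (70.3%) with the median transcript length.

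**Figure D3:**
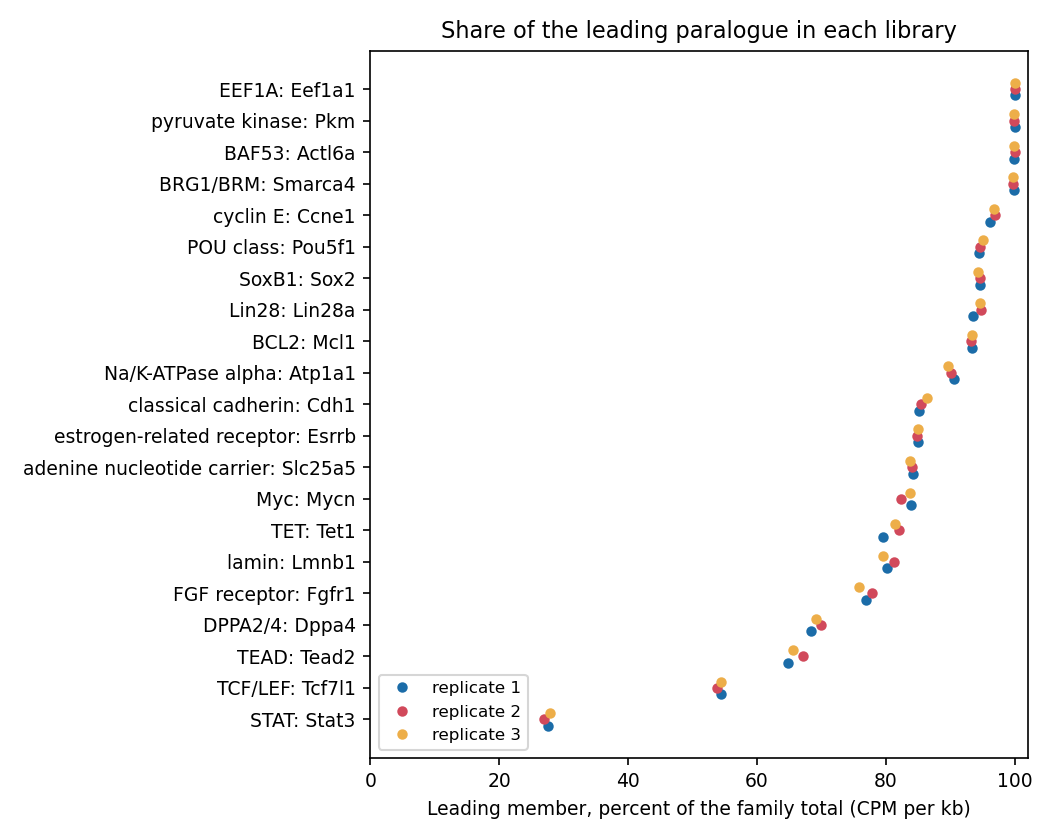
Percent of the summed CPM per kb of a family taken by its leading paralogue, for 21 families, with 1 point per uninduced library coloured by replicate. The 3 libraries lie close together in each family, from 99.98% for Eef1a1 to 27.5% on average for Stat3.

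Silent genes included nearly all members of a few large families. Of 1043 olfactory receptor genes 1008 were silent, and 1 was detected. That gene, Olfr613, had 49.7, 48.7 and 48.2 CPM, while the next receptor, Olfr985, had 1.13 CPM. None of 290 vomeronasal receptors was detected and 272 were silent. Of 38 taste receptors 34 were silent, and Tas1r1 (3.62 CPM) was the 1 detected. Of 52 keratin-associated protein genes 50 were silent, and of 42 beta-defensin genes 38. Beside these shares, 22.3% of all protein-coding genes were silent. Of 37 interleukin genes 21 were silent and 4 were detected, with Il17d (4.19 CPM) first by CPM. Of 93 cytochrome P450 genes 50 were silent and 14 detected, with Cyp20a1 (22.6 CPM) first by CPM.

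Other developmental families ranged from mostly silent to mostly detected. Over all protein-coding genes 57.9% were detected and 22.3% were silent. Of 39 Hox genes, which pattern the body axis, 12 were detected and 4 were silent. Among the detected ones Hoxb1 had 5.52 CPM. Keratins had 8 of 49 detected and 19 silent, and clustered protocadherins 15 of 57 detected and 8 silent. Collagens had 24 of 44 detected (54.55%, near the share over all protein-coding genes) and 1 silent. By CPM they were led by Col18a1, a basement membrane collagen, with 434, 437 and 447 CPM. Rhox homeobox genes had 6 of 32 detected and 17 silent, with Rhox5 at 31.2 CPM. Zinc finger genes named Zfp with a number were the opposite, with 336 of 365 detected at a median of 14.1 CPM. By CPM their highest members were Zfp106 (488 CPM), Zfp42 (443 CPM) and Zfp980 (358 CPM). Per length the order differed, with 235 CPM per kb for Zfp42, 89.3 for Zfp980 and 46.8 for Zfp106. Replication-dependent histone genes, whose RNAs end without a poly(A) tail, had 7 of 65 detected and summed to 41.2, 52.7 and 46.3 CPM. These RNAs are known to be abundant in dividing cells. The part of RNA selection in this was not tested.

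**Figure D4:**
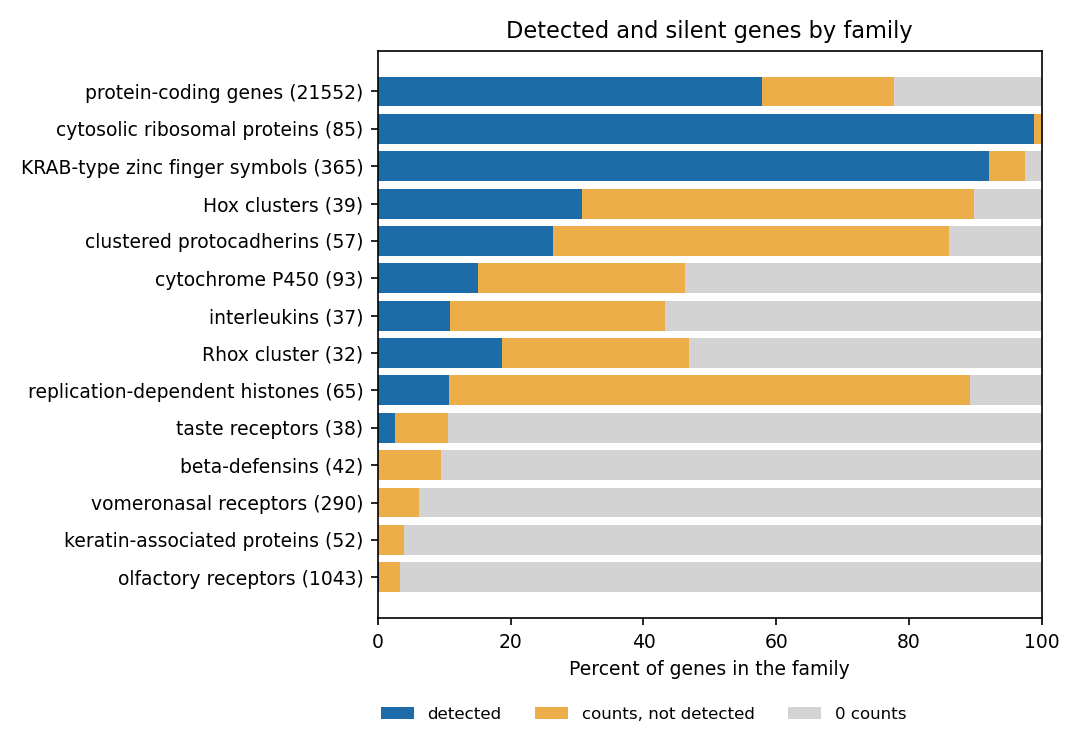
Percent of the members of 14 gene groups that were detected, had counts without being detected, or had 0 counts in the 3 uninduced libraries. The receptor and beta-defensin bars are almost wholly at 0 counts, and 84 of 85 ribosomal protein genes are detected.

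Silent genes lay side by side in the genome. Runs of 10 or more neighbouring protein-coding genes, all at 0 counts, numbered 84 and held 1797 genes, 37.5% of all silent protein-coding genes. The longest on an autosome spanned 91 genes over 2.13 Mb at chr2:85330779-87458911 (GRCm38), of which 88 were olfactory receptors. The longest of all, with 97 genes, lay at chrY:9781804-68832728, and 91 of its genes had provisional Gm symbols; genes there are known to be repeated copies, so their counts are uncertain. On the Y, 9 of 183 protein-coding genes were detected. On the autosomes 12006 of 20425 (58.8%) were, and on the X 462 of 944 (48.9%).

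Promoter sequence followed the level classes. CpG pairs in mammalian genomes are depleted by methylation except in CpG islands, which surround the starts of most widely used genes. RefSeq windows of 300 bases (250 before and 50 after the start, GRCm38.p6) matched 16365 of the 21552 protein-coding genes by symbol. The observed-over-expected CpG ratio had a median of 0.150 for silent genes and 0.354 for genes with counts that were not detected. It was 0.662, 0.760, 0.805 and 0.828 in the 4 classes of detected genes from the lowest to the highest CPM per kb. Windows with a ratio of at least 0.6 made up 3.51% of silent genes and 84.4% of the highest class, beside 50.2% of all. The step between silent and detected genes was thus larger than the steps among detected genes. It held without the olfactory, vomeronasal and taste receptors, where the 2362 remaining silent genes had a median of 0.173.

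Silence at a CpG-poor start is seen in Afp, the fetal plasma protein gene of the yolk sac and liver, whose 250 bases before the RefSeq start (chr5:90490464-90490713, GRCm38.p6, plus strand) hold 1 CG pair, in capitals. The stretches of the detected genes Eef1a1, Sox2, Pou5f1 and Nanog hold 18, 27, 8 and 3. These are raw pairs, with no allowance for base content. The observed-over-expected ratio of the 300-base window was 0.2503 for Afp. It was 0.6969, 0.8192 and 0.3736 for Eef1a1, Sox2 and Pou5f1, but 0.1916 for Nanog. By this ratio the start of the silent Afp was thus not poorer than that of the detected Nanog.
Afp: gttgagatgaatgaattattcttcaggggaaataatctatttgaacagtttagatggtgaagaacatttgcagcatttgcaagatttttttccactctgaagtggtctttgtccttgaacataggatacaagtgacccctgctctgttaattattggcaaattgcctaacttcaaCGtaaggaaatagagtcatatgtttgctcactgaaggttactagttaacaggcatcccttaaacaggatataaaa

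A TATA-box match means the letters TATAAA on the gene's own strand between 45 and 16 bases before the start. Such a match was most frequent in silent genes, with no steady fall among detected genes. It was in 7.28% of silent genes, 3.94% of genes with counts that were not detected, and 1.34%, 0.894%, 0.651% and 1.22% of the 4 detected classes, beside 2.90% of all windows. The letters CCAAT on either strand differed little, with 38.4% of silent genes, 42.4% of the highest class and 38.7% of all. Pluripotency genes did not share one type of start. Sox2, Klf4, Klf2 and Trim28 had ratios of 0.819, 0.974, 0.889 and 0.761, whereas Nanog, Esrrb, Lin28a, Pou5f1 and Zfp42 had 0.192, 0.266, 0.351, 0.374 and 0.441. The core list had a median of 0.615 over 7 genes with a window, and the naive list 0.551 over 13. Both were below the median of every class of detected genes. The formative list had a median of 0.744 over 10. The octamer ATGCAAAT, the letters bound by Pou5f1-type factors, was searched on both strands. It was in 1 of 13 naive windows (Zfp42), 1 of 10 formative windows (Pim2), 0 of 7 core windows and 1.63% of all windows. A match describes letters in this window and is no evidence of a site, and a missing match says nothing of the factor.

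**Figure D5:**
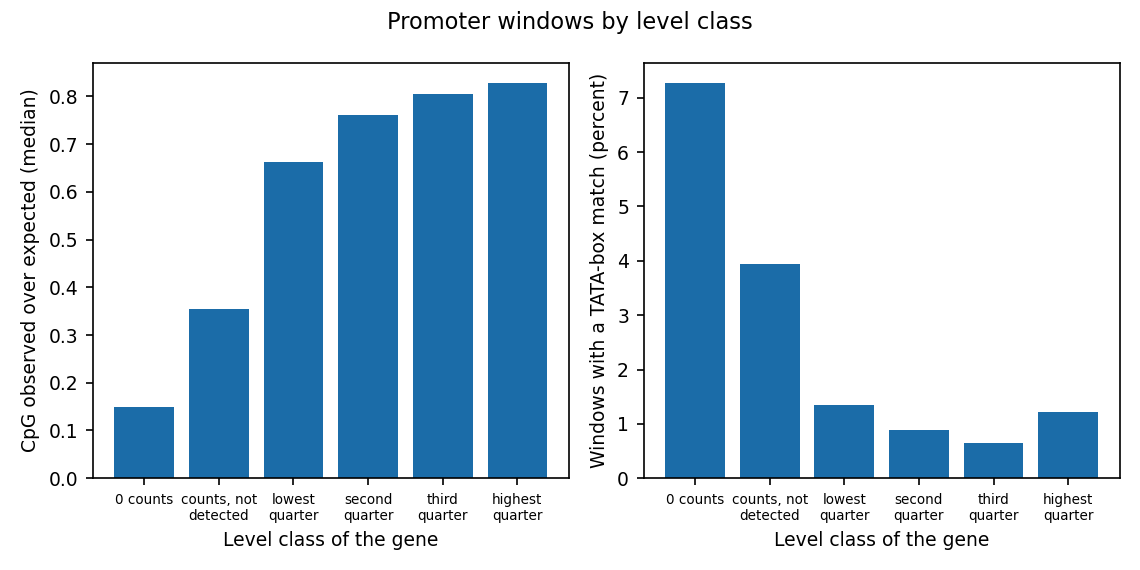
Median observed-over-expected CpG ratio (left) and percent of windows with a TATA-box match (right) of RefSeq promoter windows, by 6 level classes of protein-coding genes from 0 counts to the highest detected class. The ratio rises from 0.150 to 0.828. TATA-box matches fall from 7.28% at 0 counts to 0.651% in the third detected class, with 1.22% in the highest.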

How the data were processed

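RNA sequencing of 3 uninduced mouse ESC samples was used. The deposited values are expected counts of reads for each gene, which the submitters' processing notes tie to RSEM 1.17, and the file headers to GRCm38 and annotation release 84. These notes list limma, Picard and cutadapt too, and no source used here states the aligner. Reads that match several genes are divided between them in expected counts, which makes genes with close copies uncertain. No per-library values of other samples of the table entered the levels.

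Expected counts were rounded to whole numbers. Of 35771 rows, 339 had no symbol in GENCODE M21 (GRCm38) and were left out; they held 0.112% of the counts. Library totals were scaled by TMM (edgeR 4.0.16, R 4.3.3), and CPM and CPM per kb of exon union were computed with pandas 2.3.3. Differences between libraries were tested with a chi-square test of homogeneity on genes with at least 30 counts, with Benjamini-Hochberg adjustment and a threshold of 0.05, after it had been tested on simulated data. A gene was marked uncertain where another transcript had at least 95% identity over at least 50% of its own (minimap2 2.31-r1302), or where exons of a detected gene covered at least 20% of its exons (bedtools 2.31.1), on either strand because strand of counting is not known.

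Named genes were the 25 protein-coding genes with the highest CPM and CPM per kb, members of 29 gene lists and of 64 paralogue families, the 3 highest members of 20 symbol families with any exception where at most 5 were detected, and the 10 most variable genes between libraries at 20 CPM or more. The members and lists were chosen with earlier results of these data known. Promoter sequences came from RefSeq (GRCm38.p6). The alternatives were library totals, DESeq2 1.42.0 size factors, other detection thresholds and transcript lengths, and leaving out each library.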

Additional observations from a re-analysis of the deposited data

How the results depend on the processing

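No paired analysis was possible because only 1 group was analysed. Of 59 values recomputed under an alternative, 46 stayed within the spread between libraries or within 1.5 times a count, and 13 moved by more. The median rank percentile of the core list was 2.16; it was 2.81 with the longest transcript length, 5.27 with the median transcript length and 3.36 when ranked among detected protein-coding genes, and ran from 2.24 to 2.26 without one replicate each. That of the naive list was 9.19, against 12.2, 18.0 and 14.8 in the same order, and 9.32 to 9.78 without one replicate each. Both thus depend on the length and the set of genes ranked, and the cause was not tested further. Genes that differed between libraries numbered 287, and 72 without replicate 1, 203 without replicate 2 and 183 without replicate 3; fewer libraries are compared in each. They numbered 261 with library totals and 278 with DESeq2 size factors. Detected genes ran from 12095 at 2 CPM to 14219 at 0.5 CPM, lineage markers detected from 22 to 38, and silent protein-coding genes reached 6140 when fewer than 3 counts were taken as silent. With library totals of 6545308 to 7952695 counts, levels under 1 CPM rest on few reads and are not ordered here. Depth limits the silent class to levels below 0.139 CPM.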

Other observations

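Several abundant entries were no annotated protein-coding gene. Gm26825, a lincRNA on chromosome 5, had 2655, 2746 and 2767 CPM. Its transcript is 95.6% identical over its whole length to Hspa8, the constitutive HSP70 chaperone gene with 2201 CPM, and the pair summed to 4809, 4972 and 4992 CPM. Gm38312, an entry on chromosome 1 whose coding status is not settled in the annotation, had 2661, 2731 and 2673 CPM, and no other transcript passed the similarity threshold for it. Gm26905 and Gm43041 had 783 and 733 CPM. These 4 were among the 12 most abundant genes without a protein-coding annotation.

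Other reads were shared between near copies. Kpna2, which encodes an importin used by pluripotent cells, had 30.6, 49.0 and 34.4 CPM, whereas its copy Gm10184, 99.9% identical, had 601 CPM, and the pair summed to 644, 640 and 633 CPM. Kpna2 alone was among the 10 most variable genes, and the sum varied less. Eno1 had 1026 CPM and its copy Eno1b 1865 CPM. Rpl10 had 524 CPM and Rpl10-ps3 815 CPM, and Hmga1 920.3 CPM and Hmga1b 443 CPM.

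The 10 most variable genes also held the ribosomal RNA entry CT010467.1, with 341, 780 and 949 CPM, lowest in replicate 1. Zbed6, a factor made from a domesticated transposon, had 13.6, 30.4 and 28.1 CPM and was also lowest there. Lsm7, a component of an RNA-processing ring, had 41.9, 23.2 and 24.7 CPM and was highest there. Lin9, a subunit of a cell-cycle regulator, had 24.5, 24.6 and 15.3 CPM, with replicate 3 low. The others were Gm4340, Gm10146, Gm20721, Gm6793 and Galnt2.

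Olfr613 was the single olfactory receptor gene above 2 CPM, at 48.9 ± 0.757 CPM with no similar transcript found. Chromosome 11 had the highest ratio of its median CPM per kb over detected protein-coding genes to that of the autosomes, 1.33 ± 0.0155, with 1037 of 1630 genes detected.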
